A study of Chrysanthemum x morifolium with 40 samples.

Results

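Dehydrins and late embryogenesis abundant (LEA) proteins were followed in the roots of a waterlogging-sensitive and a waterlogging-tolerant chrysanthemum. The members were the genes of the expression table whose description, a protein match or a Pfam domain name, contained the word dehydrin or the words late embryogenesis abundant. They were 214 of 178540 genes in the table. In 17 of them the word stood in the name of the matched protein and in 197 only in the domain name, and 127 had no protein match at all. By domain or match they fell into 39 dehydrins, 9 LEA_1, 129 LEA_2, 13 LEA_3, 8 LEA_4 and 1 LEA_6 genes, 8 genes of the seed maturation protein domain and 7 genes of other kinds, such as those matched to LEA65 and LEA47 of Arabidopsis. The rule used only the annotation and no measured value. The names therefore rest on sequence matches in the deposited annotation, and no protein was measured.

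LEA proteins are small and mostly hydrophilic proteins that accumulate in maturing seeds as they dry and in vegetative tissue under water deficit, cold, salt or abscisic acid. Dehydrins, one of these families, are unfolded in solution, bind membranes and other proteins through a lysine-rich repeat, and are often under the control of dehydration-responsive elements and abscisic acid response elements. The LEA_2 domain differs from the rest: it is a folded domain that is found in LEA14 and also in the NDR1/HIN1-like (NHL) proteins, a family anchored in membranes with several members known from pathogen responses in Arabidopsis.

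Roots came from 8-week-old seedlings of 2 cultivars, CK ('zaoxiaoyangju', sensitive) and EWT (Enhanced Waterlogging Tolerance), both kept as cuttings, grown with 16 h of light at 25 °C and 8 h of darkness at 20 °C per the labels, while the study's methods give another temperature and day length. Seedlings were put under water that stood 2 cm over the upper leaves and their roots were taken at 0 h, after 3, 12 or 24 h in the water, or 3 h after seedlings flooded for 24 h were returned to air (24_3 h), with 4 libraries in each of the 10 groups and 40 in all. Roots that stayed unflooded were sampled at 0 h only, so waterlogging and the time of day or of growth cannot be told apart in a comparison with 0 h. Each cultivar is 1 genotype, so a difference between CK and EWT belongs to these 2 genotypes.

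The libraries held 3517588 to 9929777 fragments on genes, with group medians from 4204012 in CK at 24_3 h to 9042876 in EWT at 3 h, and CK libraries were shallower than EWT libraries at each sampling point by the group medians. Levels are FPKM, that is, fragments scaled to gene length and library size, so they are per length and may be set beside each other between genes. The library size inside these values was not the fragment total. It was 1.14 to 1.29 times the fragments on genes at 0 h, 0.762 to 0.991 times at 12 h and 0.803 to 0.9997 times at 24 h. FPKM at 12 h and 24 h are therefore higher beside 0 h than values scaled to all fragments. Each list of root markers was detected in all 40 libraries, some at low levels. SHORT-ROOT matches, a regulator of root radial patterning, summed to 9.75 to 44.8 FPKM, and COBRA matches to 282 to 989. Casparian strip membrane protein matches summed to 0.59 to 89.3 FPKM, SCARECROW matches to 0.92 to 8.77 and high-affinity nitrate transporter 2 matches to 0.9 to 72.2. Markers of green tissue (267 genes, 63 of them at 0 in all libraries) summed to 81.4 to 599.7 FPKM, and those of seeds (90 genes, 15 at 0 in all libraries) to 16.3 to 347.2 FPKM. In bulk roots fewer cells of a type and less RNA per cell cannot be told apart.

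Of the 214 members, 136 reached 1 FPKM in at least 4 libraries and were tested; 60 were above 0 but below that filter, and 18 were at 0 in all 40 libraries. The seed-type classes had the smallest tested shares: 1 of 8 LEA_4 and 1 of 8 seed maturation protein genes were tested, as against 24 of 39 dehydrins, 92 of 129 LEA_2, 7 of 13 LEA_3, 4 of 9 LEA_1 and the single LEA_6 gene. Among the untested members the highest mean was 0.367 FPKM. The most abundant member was evm_TU_scaffold_5885_18, matched to LEA65, with a mean of 867 FPKM over the 40 libraries, followed by the NHL2 match evm_TU_scaffold_6455_43 (361) and the dehydrin evm_TU_scaffold_193_58 (235). The median of the 39 dehydrins was a mean of 0.682 FPKM, and over the 129 LEA_2 genes 1.46 FPKM.

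Under waterlogging far more members fell than rose. A member was called when its limma p-value, adjusted by the Benjamini-Hochberg method over all 89517 genes tested, was at most 0.05 and its fold change at least 2; comparisons with 0 h share the 0 h libraries. In CK at 3 h, 3 of 136 tested members were higher, against 11.3% of all tested genes, and 59 were lower, against 14.2%. At 12 h in CK the counts were 13 higher (18.4% of all genes) and 67 lower (27.1%), and at 24 h 6 higher (20.4%) and 75 lower (28.6%). The lower side thus held 43.4% to 55.1% of the tested members in CK, a share above that of all genes at each time. In EWT 15 members were higher at 3 h (8.96% of all genes) and 32 lower (12.7%). At 12 h, 31 were higher (20.2%) and 59 lower (26.5%). At 24 h, 25 were higher (19.3%) and 68 lower (26.7%). Library sizes from all counted fragments gave EWT 19 rises and 70 falls at 12 h, and 16 rises and 75 falls at 24 h. The matching totals for all 89517 tested genes were 12912 rises and 31996 falls, then 13382 and 30006. In CK that scaling left 7 rises and 73 falls at 12 h, beside 12646 and 30656 for all genes. The median log2 fold change of the members was -1.27 in CK and -0.66 in EWT at 12 h, where the median of all genes was -0.17 and -0.12; with members at 0 in a whole group set to their bound, it was -1.28 and -0.79. Library sizes from all fragments moved the median of all genes at 12 h to -0.55 in CK and -0.61 in EWT, and no member call changed sign under that setting. At 12 h 56 members were lower in both cultivars, 9 were higher in both and none was called in opposite directions. Opposite calls against 0 h numbered 1 after 3 h in the water, 2 after 24 h and 1 after reoxygenation. Shared calls were counted for the members only, so these counts have no background of all genes.

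The dehydrin evm_TU_scaffold_1614_8 (chr26:76922900-76923739, minus strand, in the coordinates of the deposited table, for which no source used here names the genome build) is a gene the study itself singled out on these samples as possibly downstream of CmTINY2, whose Arabidopsis homologue AtTINY2 binds dehydration-responsive elements, so its pattern is no independent evidence. It was the third most abundant dehydrin, with a mean of 38.2 FPKM. In CK its 4 libraries stood at 19.6, 26.7, 23.2 and 25.6 FPKM at 0 h, 19.7, 57.4, 56.7 and 23.3 at 3 h and 56.9, 69.8, 43.3 and 35.3 at 12 h. In EWT the values were 26.4, 23.3, 26.6 and 52.7 FPKM at 0 h, 48.3, 64.7, 18.4 and 47.96 at 3 h and 85.2, 111, 113 and 124 at 12 h. All EWT libraries at 12 h lay above all other libraries of the series, and the CK libraries at 3 h fell into a low and a high pair. At 24 h the values were 22.7, 6.08, 59.6 and 31.3 in CK and 68.9, 19.7, 23.8 and 27.6 in EWT, wide apart within both groups, and at 24_3 h 22.7, 8.03, 5.08 and 8.45 in CK and 1.699, 11.1, 5.71 and 5.64 in EWT.

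The gene rose in EWT at 12 h against 0 h (log2 fold change 1.81, SE 0.53, adjusted p = 0.00417). In CK at 12 h the groups did not overlap either (exact permutation p = 0.0286, two-sided, the smallest that 4 against 4 libraries allow), but the call was missed (log2 fold change 1.07, SE 0.53, adjusted p = 0.0917). The level in EWT at 12 h was above that in CK in all 4 libraries, with a log2 difference of 1.11 (adjusted p = 0.0887), and it was called under 2 of 16 alternative settings, with adjusted p from 0.00736 to 0.195. The difference between the cultivars' responses at 12 h was 0.74 on the log2 scale with an SE of 0.75 (adjusted p = 0.614), so a larger response in EWT was not shown, nor was it shown that the responses were alike. After reoxygenation the gene fell in EWT against 24 h (log2 fold change -2.60, SE 0.53, adjusted p = 0.00028) and also stood below its own 0 h level (log2 fold change -2.59, SE 0.53, adjusted p = 0.000254).

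The dehydrins of chromosomes 25 and 27 were set beside evm_TU_scaffold_1614_8. evm_TU_scaffold_541_105 and a dehydrin gene whose ID bears no scaffold number (chr25:64992971-64996040, the unnumbered chromosome 25 dehydrin) lie as a pair between 64992971 and 65019097 on chromosome 25. evm_TU_scaffold_1829_107 and a second such gene (chr27:64468642-64475737, the unnumbered chromosome 27 dehydrin) lie as a pair between 64449716 and 64475737 on chromosome 27. With evm_TU_scaffold_1614_8 on chromosome 26 they were all 5 tested dehydrins of chromosomes 25, 26 and 27, a grouping made after the values were seen and given as a description. All 5 were called higher in EWT at 12 h (20.2% of all genes), with log2 fold changes from 1.81 to 4.82, and 2 of the 5 in CK (18.4%). The difference of the responses at 12 h was not called for evm_TU_scaffold_1614_8, evm_TU_scaffold_541_105 or the unnumbered chromosome 27 dehydrin. All 5 fell from 24 h to 24_3 h in EWT (11.7% of all genes) and none was called in CK (13.3% of all genes lower).

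evm_TU_scaffold_1829_107 reached a higher level in EWT than in CK. The libraries stood at 1.17, 4.05, 1.11 and 3.68 FPKM in CK and 1.03, 1.197, 1.78 and 1.14 in EWT at 0 h, and at 6.95, 5.87, 4.84 and 5.83 in CK and 27.2, 39.2, 47.8 and 42.3 in EWT at 12 h. No EWT library overlapped the CK range at 12 h. The rise was called in both cultivars, with a log2 fold change of 1.42 in CK (adjusted p = 0.00186) and 4.82 in EWT (adjusted p = 3.92e-13), and the difference of the responses itself passed (3.40, SE 0.53, adjusted p = 2.43e-05). At 24 h the EWT libraries were at 50.4, 25.6, 24.8 and 21.4 FPKM and the CK libraries at 2.57, 1.204, 4.27 and 5.07.

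The unnumbered chromosome 25 dehydrin was close to absent in CK, where the highest of 20 libraries reached 1.96 FPKM. In EWT it rose from 1.26, 1.41, 0.544 and 0.869 FPKM at 0 h to 6.53, 8.08, 3.49 and 7.43 at 3 h and 13.6, 20.4, 17.9 and 18.4 at 12 h. The EWT libraries at 3 h already lay above every CK library. The response of EWT exceeded that of CK by 5.28 on the log2 scale at 12 h (SE 0.97, adjusted p = 0.000214). The remaining genes of the group, evm_TU_scaffold_541_105 and the unnumbered chromosome 27 dehydrin, reached 32.04 and 43.1 FPKM in EWT at 12 h from 6.77 and 5.61 at 0 h. Their differences in response were 0.68 (adjusted p = 0.785) and 1.73 (adjusted p = 0.122). Fragments of near-identical copies may have been shared among such genes, since how the counting treated them is not stated.

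**Figure D1:**
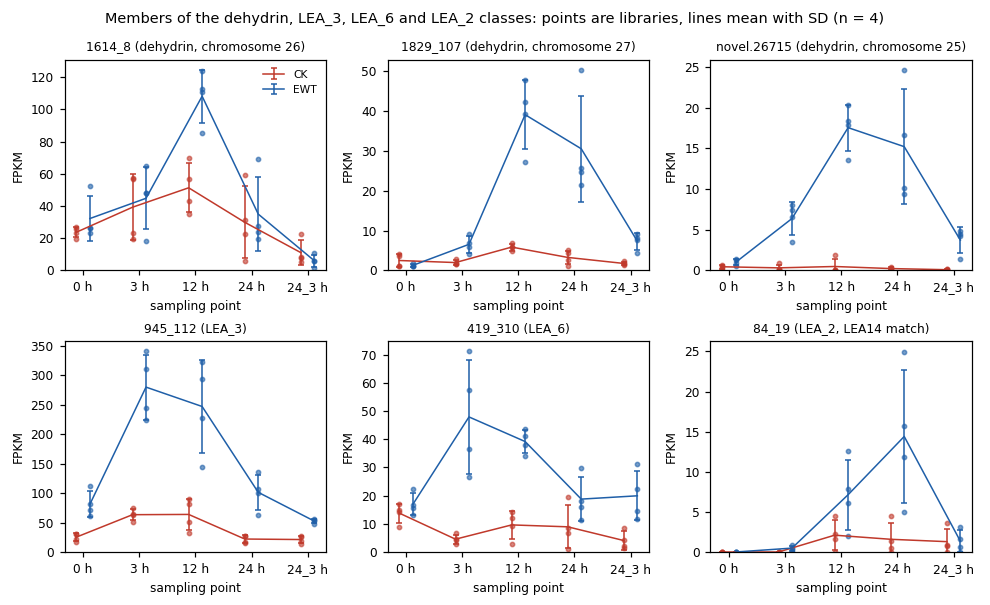
Expression of 6 members in FPKM (vertical axes, linear, from 0) at the 5 sampling points (horizontal axes, evenly spaced) in CK (red) and EWT (blue). Points are libraries, lines join group means and bars are the SD of 4 libraries; gene numbers are shortened to scaffold and gene, and the third panel is the unnumbered chromosome 25 dehydrin. The 4 EWT libraries of evm_TU_scaffold_1614_8 at 12 h sit between 85.2 and 123.9 FPKM, and the unnumbered chromosome 25 dehydrin stays at or below 1.96 FPKM in all CK libraries.

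Seed storage markers were also unequal between these groups. Matches to 2S albumin, a seed storage protein, summed to 0.5200 to 1.65 FPKM in CK and 25.7 to 72.5 in EWT at 12 h, and matches to vicilin, another storage protein, to 1.54 to 18.9 and 66.7 to 97.1. All seed markers together lay at 17.1 to 39.1 FPKM in CK and 134 to 224 in EWT at 12 h, and markers of green tissue at 182 to 390.3 and 487 to 599.7. Among the green markers, photosystem (74.9 to 234 and 297 to 404) and chlorophyll a-b binding protein matches (36.4 to 76.0 and 126 to 140) were higher in EWT. Rubisco small subunit matches overlapped (56.9 to 93.3 and 53.6 to 63.6). Rubisco activase matches were lower in EWT (9.64 to 13.7 and 4.78 to 7.76). The part of these transcripts in the rise of the dehydrins was not tested.

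A larger set of dehydrins went the other way. Chromosomes 7, 8 and 9 held 18 dehydrins, 13 of them tested, and 16 of the 18 sat in 4 arrays: 4 genes within 120.6 kb (151762437 to 151883081) and a pair within 7.3 kb (from 152466028) on chromosome 7, 5 within 160.7 kb on chromosome 8 (163683245 to 163843943) and 5 within 226.3 kb on chromosome 9 (160086038 to 160312356). Their summed level was 329 to 528 FPKM in CK and 516 to 622 in EWT at 0 h. At 3 h it was 33.8 to 75.8 and 17.2 to 50.4 FPKM, and at 24_3 h 15.8 to 32.9 and 9.84 to 21.4. Of the 13 tested genes, 12 fell at 3 h in CK and 12 in EWT, and all 13 fell at 24 h in both. Their median log2 fold change at 24 h was -3.74 in CK and -4.75 in EWT, where the median of all genes was -0.15 and -0.15. The choice of these chromosomes followed the values, and neighbouring copies may share fragments, so the 13 are not 13 separate observations.

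evm_TU_scaffold_924_432 on chromosome 8 was the second most abundant dehydrin. Its libraries stood at 137, 199, 149 and 198 FPKM in CK at 0 h and 12.4, 27.8, 32.4 and 24.4 at 3 h, and at 182, 229, 176 and 184 in EWT at 0 h and 19.6, 20.3, 7.24 and 13.7 at 3 h. Every library of both cultivars after 0 h lay below every 0 h library. It was still lower after reoxygenation, at 4.39 to 7.24 FPKM in CK and 4.42 to 6.58 in EWT, a further fall from 24 h in CK (log2 fold change -1.26, SE 0.40, adjusted p = 0.0139) and in EWT (log2 fold change -1.51, SE 0.40, adjusted p = 0.00393).

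evm_TU_scaffold_423_148 on chromosome 9 went from 49.1, 73.8, 51.8 and 77.2 FPKM in CK at 0 h to 0.343, 1.71, 0 and 0.602 at 24 h (log2 fold change -6.99, SE 0.68, adjusted p = 7.12e-11). In EWT it went from 51.9, 66.7, 50.96 and 55.5 to 0.285, 0.285, 0.215 and 0.385 (log2 fold change -7.17, SE 0.68, adjusted p = 4.4e-11). The cultivars followed each other closely for this gene, and no cultivar comparison or difference in response of it was called.

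evm_TU_scaffold_924_426 (chromosome 8) and evm_TU_scaffold_6429_31 (chromosome 7) had higher values in EWT at 0 h. evm_TU_scaffold_924_426 stood at 16.2, 29.6, 22.1 and 33.2 FPKM in CK and 66.2, 84.4, 68.2 and 73.8 in EWT at 0 h, and evm_TU_scaffold_6429_31 at 13.5, 15.4, 17.1 and 25.7 and 58.5, 67.6, 64.3 and 76.8. Neither difference at 0 h was called (adjusted p = 0.161 and 0.134), although no library overlapped. At 24 h evm_TU_scaffold_924_426 had fallen to values of 0 to 0.428 FPKM in CK and 0.215 to 2.28 in EWT, and evm_TU_scaffold_6429_31 to values of 0 to 0.574 and 0 to 1.300.

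Some array copies fell further in one cultivar. evm_TU_scaffold_6429_32 (chromosome 7) was at 19.7, 26.4, 10.6 and 7.47 FPKM in CK and 4.65, 7.99, 7.14 and 2.43 in EWT at 12 h, from 39.6 to 58.4 and 55.1 to 68.3 at 0 h. Its response differed by -1.94 (adjusted p = 0.0379), a call that was lost under 12 of 24 alternative settings, with adjusted p from 0.00403 to 0.103. evm_TU_scaffold_423_158 (chromosome 9) was at 3.88 to 6.95 FPKM in EWT and 0.556 to 1.19 in CK at 0 h, and at 0 in all libraries of both cultivars at 24 h, so its larger fall in EWT (-2.52, adjusted p = 0.0237) started from a higher level and ended at the floor in both; it was lost without CK 0 h replicate 4 and with a pseudocount of 0.01. evm_TU_scaffold_924_433 (chromosome 8) was at 0 in all 4 EWT libraries at 24_3 h from 19.9 to 38.5 at 0 h, at least 158-fold lower by the limit of 3 fragments over the group.

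**Figure D2:**
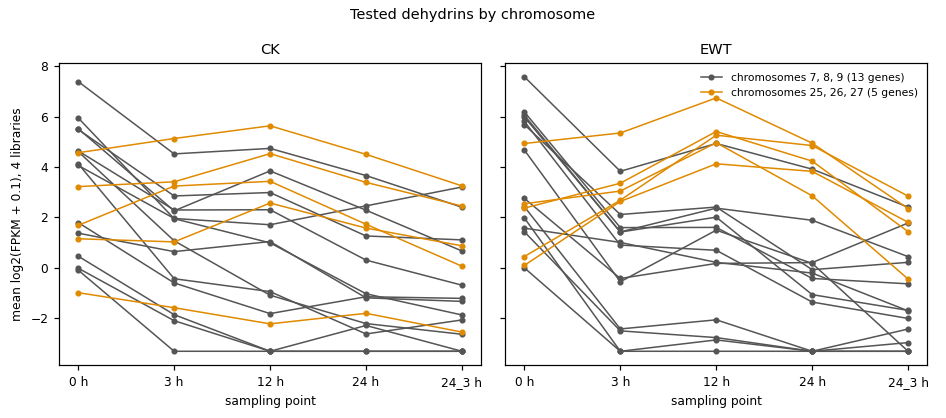
Mean of log2(FPKM + 0.1) over 4 libraries (vertical axis) at the 5 sampling points (horizontal axis, evenly spaced) for the tested dehydrins of chromosomes 7, 8 and 9 (13 genes, grey) and of chromosomes 25, 26 and 27 (5 genes, orange), with CK on the left and EWT on the right; each line is a gene, with no error drawn. All 13 grey genes are below their 0 h level at 24 h in both panels, and all 5 orange genes are above theirs at 12 h in EWT.

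Some other transcripts of the same roots were lower beside these arrays. Matches to 11S globulin, a seed storage protein, summed to 139 to 172 FPKM at 0 h and 9.83 to 16.9 at 24 h in CK, and to 104 to 178 and 27.1 to 49.1 in EWT. Other seed markers went the other way. In EWT, 2S albumin matches summed to 0.99 to 3.48 FPKM at 0 h and 85.7 to 254.2 at 24 h, and vicilin matches to 1.62 to 3.19 and 10.6 to 55.7. In CK, 2S albumin matches were higher at 24 h (0.37 to 0.81 and 2.55 to 4.05 FPKM), and vicilin matches overlapped. All seed markers together overlapped between 0 h and 24 h in EWT and were lower at 24 h in CK. Casparian strip membrane protein matches, markers of the endodermis, summed to 63.5 to 84.98 FPKM at 0 h and 2.64 to 5.98 at 24 h in CK, and to 48.2 to 89.3 and 0.5900 to 8.58 in EWT. All 199 root markers together, 20 of them at 0 in all libraries, summed to 596 to 690.4 FPKM at 0 h and 846 to 1225 at 24 h in CK. Within this total, COBRA matches (411 to 471 and 679 to 961 FPKM) and root cap matches (6.02 to 33.5 and 112.1 to 218) were higher at 24 h. SCARECROW (4.46 to 6.15 and 0.98 to 2.48), SHORT-ROOT (31.2 to 44.8 and 13.5 to 16.7) and high-affinity nitrate transporter 2 matches (43.9 to 72.2 and 0.9 to 4.46) were lower, and PLETHORA and AIL matches overlapped. The part of these markers in the dehydrin results was not tested.

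The other 6 tested dehydrins lay elsewhere. evm_TU_scaffold_193_58 (chromosome 16), the most abundant, stood at 327, 418, 423 and 392.4 FPKM in CK at 0 h and 166, 117.9, 181 and 146 at 24_3 h (log2 fold change -1.36, SE 0.18, adjusted p = 1.27e-07). In EWT it stood at 179, 222, 206 and 287 at 0 h and 145, 248, 158 and 193 at 24_3 h, overlapping, and the difference of the responses passed (1.09, SE 0.25, adjusted p = 0.00857). CK libraries were all higher at 0 h than at 24_3 h.

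evm_TU_scaffold_1145_30 (chromosome 5) was the dehydrin with the largest difference between the cultivars' responses at 3 h. In CK it stood at 2.97, 0.754, 0.898 and 0.661 FPKM at 0 h, at 0.301, 0.496, 0 and 0 at 3 h, and at 0 in all 12 later libraries. In EWT it stood at 0.668, 0.176, 1.15 and 3.31 at 0 h, 6.46, 7.27, 13.6 and 5.53 at 3 h and 2.58, 0.862, 5.21 and 3.78 at 24 h. The response difference was 5.43 at 3 h (SE 0.82, adjusted p = 5.03e-05) and the calls of the cultivars were opposite in sign (-2.43 in CK and 3.00 in EWT). Against the limit that 3 fragments over the CK group allow, EWT was at least 5.66-fold higher at 12 h and at least 17.3-fold higher at 24_3 h. The gene was low in EWT too, at most 13.6 FPKM in the libraries given.

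Dehydrins on chromosomes 24 and 22 were low: evm_TU_scaffold_1802_74 stood at 2.48, 4.44, 1.03 and 2.73 and evm_TU_scaffold_1199_68 at 1.86, 0.403, 0.513 and 1.36 FPKM in EWT at 12 h, and all CK libraries of both genes were at 0 at 0 h and 12 h, so their response in CK was not measured. Against the limit of 3 fragments over the CK group, EWT was at least 5.14-fold higher for the first and at least 1.996-fold higher for the second at 12 h. evm_TU_scaffold_3807_6 (chromosome 17) was higher in CK at 12 h (1.06, adjusted p = 0.000368), and evm_TU_scaffold_1113_146 (chromosome 23) fell at 12 h in both (-2.25 in CK and -1.85 in EWT).

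The LEA_3 class, which holds SAG21 of Arabidopsis, a mitochondrial protein tied to senescence and oxidative stress, was led by evm_TU_scaffold_945_112 (chr10:31604752-31610873), a SAG21 match. Its libraries stood at 17.1, 29.95, 22.7 and 31.4 FPKM in CK and 111, 81.7, 60.2 and 70.5 in EWT at 0 h. At 3 h they stood at 64.96, 62.5, 74.6 and 51.05 in CK and 223, 244, 310.5 and 341 in EWT, and at 12 h at 89.1, 81.7, 51.6 and 32.5 and 228, 144, 293 and 322. EWT was above CK in every library at each of the 5 points, and both cultivars were above their own 0 h range at 3 h and 12 h. The rise was called at 3 h in CK (log2 fold change 1.35, SE 0.29, adjusted p = 0.00033) and in EWT (log2 fold change 1.80, SE 0.29, adjusted p = 6.05e-06). The cultivar difference was called at every point, from 1.35 at 24_3 h to 2.19 at 24 h on the log2 scale, whereas the difference of the responses at 3 h was 0.46 (SE 0.40, adjusted p = 0.663). With library sizes from all fragments the calls of its rise at 12 h were lost in both cultivars.

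Among the other LEA_3 genes, evm_TU_scaffold_945_70 went without a call in all 19 comparisons, with group means of 12.5 to 31.4 FPKM, and the SAG21 match evm_TU_scaffold_945_105 was called only in EWT against CK at 3 h (1.10). The SAG21 match evm_TU_scaffold_425_575 was the opposite of evm_TU_scaffold_945_112 in cultivar, with 4.68 to 10.3 FPKM in CK and 0 to 1.33 in EWT at 24 h, and it fell in CK on reoxygenation to 0 to 1.73 (log2 fold change -4.17, SE 0.87, adjusted p = 0.000302).

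The single LEA_6 gene, evm_TU_scaffold_419_310 (chr26:101813619-101813933), was higher in EWT than in CK without overlap at 3 h, 12 h and 24_3 h. At 0 h the libraries stood at 8.996, 14.2, 14.96 and 16.9 FPKM in CK and 22.3, 16.7, 13.1 and 15.6 in EWT, overlapping. At 3 h they stood at 4.51, 4.14, 6.76 and 2.799 and 36.5, 57.4, 26.6 and 71.2, far apart. The gene had fallen in CK (log2 fold change -1.61, SE 0.55, adjusted p = 0.0242), while the rise in EWT missed the call (adjusted p = 0.0542) although its groups did not overlap. The response difference was 3.03 (SE 0.78, adjusted p = 0.0149). EWT stayed above CK at 12 h, with 2.95 to 14.1 FPKM in CK and 34.1 to 43.5 in EWT. At 24 h the libraries overlapped, at 6.92, 1.08, 19.4 and 8.35 in CK and 15.8, 11.5, 29.9 and 17.9 in EWT, although the difference passed the call (1.55, adjusted p = 0.0212). At 24_3 h they were apart again, at 1.26 to 8.59 in CK and 11.8 to 31.1 in EWT (log2 difference 2.52).

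LEA_4 genes, seed-type proteins with long repeats, were almost silent. The only one tested, evm_TU_scaffold_87_15, stood at 0, 0.683, 0 and 0.0893 FPKM in EWT at 0 h and 1.78, 3.61, 2.94 and 3.91 at 12 h, against 0.287, 0.256, 0.7601 and 0 in CK at 12 h. Its rise in EWT was called (log2 fold change 3.95, SE 0.67, adjusted p = 5.94e-06), as was the difference of the responses (4.16, SE 0.95, adjusted p = 0.00267). The untested evm_TU_scaffold_7142_15 and evm_TU_scaffold_1748_4 had their highest group means in EWT, at 0.955 FPKM at 12 h and 0.379 at 24 h.

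Of the 4 tested LEA_1 genes, 3 were matched to the soybean seed maturation protein PM1, and these were low. evm_TU_scaffold_1457_176 (chromosome 14) was at 0 in all 16 EWT libraries from 0 h to 24 h and stood at 0.281, 1.57, 0.312 and 1.15 FPKM in CK at 0 h, at least 5.92-fold lower in EWT. evm_TU_scaffold_271_180 (chromosome 15) was higher in EWT instead, with 2.77 to 4.79 FPKM in EWT and 0 to 0.552 in CK at 12 h (log2 fold change 4.50, SE 0.75, adjusted p = 5.54e-06). The third (chr13:223786392-223788340, with no scaffold number in its ID) was at 2.07 to 5.48 and 1.76 to 4.202 FPKM at 12 h and fell on reoxygenation in both cultivars (-1.82 in CK and -3.39 in EWT against 24 h). The 1 tested gene with the seed maturation protein domain, evm_TU_scaffold_480_60, matched to LEA34, fell in both cultivars: it lay at 2.53 to 8.26 FPKM in CK at 0 h and 0 to 0.291 at 3 h (log2 fold change -4.47, SE 0.83, adjusted p = 5.29e-05), and at 1.24 to 7.22 and 0 to 0.1253 in EWT. The untested evm_TU_scaffold_1189_124 and evm_TU_scaffold_622_77 of the same domain stood at means of 0.971 and 0.298 FPKM in EWT at 0 h.

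The LEA_2 class made up 92 of the 136 tested members and so most of the counts. In CK 43 of the 92 fell (14.2% of all genes) and 2 rose (11.3%) at 3 h, and 56 fell (28.6%) and 6 rose (20.4%) at 24 h. In EWT 18 fell (12.7%) and 10 rose (8.96%) at 3 h, and 49 fell (26.7%) and 17 rose (19.3%) at 24 h. The shares of LEA_2 genes that rose in EWT were near those of all genes, and read alone they say little about the class. The median log2 fold change at 3 h was -1.13 in CK and -0.26 in EWT, beside medians of -0.03 and -0.13 for all genes. Of the 34 genes matched to NHL proteins, 19 fell and none rose at 3 h in CK, whereas 7 fell and 5 rose in EWT. Their summed level was 1191 to 1623 FPKM at 0 h and 648 to 1041 at 3 h in CK, and 959.6 to 1145 and 969 to 1416 in EWT.

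**Figure D3:**
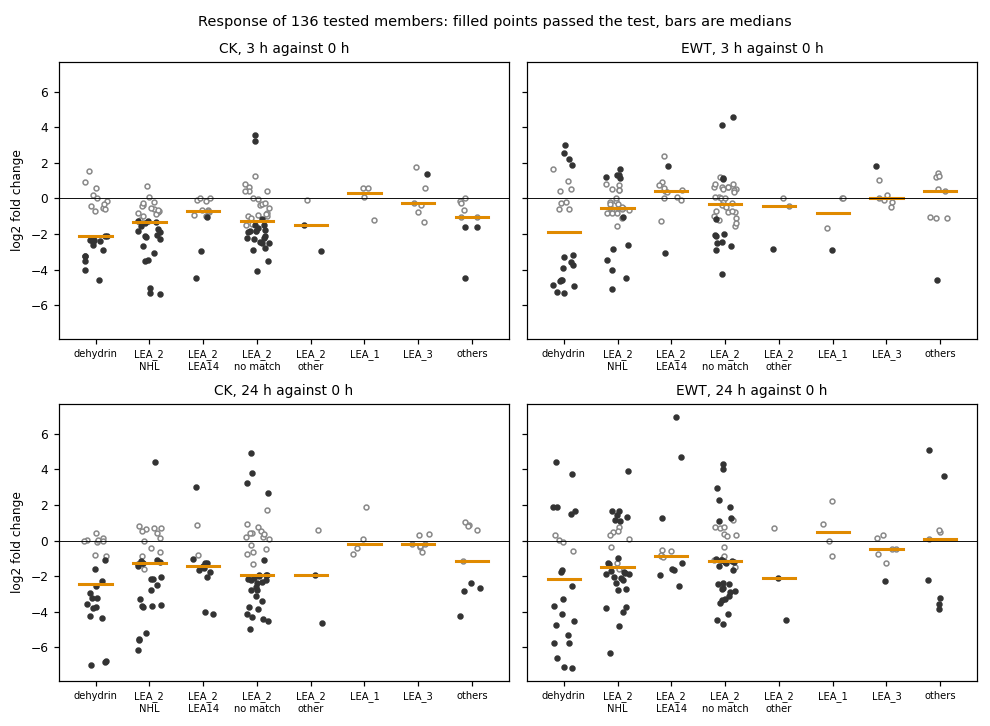
Log2 fold change on the log2(FPKM + 0.1) scale (vertical axes) of the 136 tested members by class (horizontal axes; LEA_2 is divided by protein match, and the last column holds LEA_4, LEA_6, the seed maturation protein and the other genes), at 3 h and 24 h against 0 h in CK and EWT. Filled points passed the test, open points did not, and bars are class medians; the dehydrin median at 3 h is -2.10 in CK and -1.88 in EWT.

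Some NHL and related LEA_2 genes fell to near 0 and rose again within 3 h of reoxygenation, not always to the 0 h level. evm_TU_scaffold_1467_131, matched to NHL1, stood at 34.8, 38.8, 51.00 and 54.1 FPKM in CK at 0 h, 0.2104, 0.789, 1.05 and 2.59 at 24 h and 8.97, 14.3, 14.7 and 23.1 at 24_3 h. In EWT it stood at 58.2, 47.9, 44.4 and 35.3 at 0 h, 0.524, 0, 0.925 and 1.65 at 24 h and 7.96, 27.3, 13.3 and 15.2 at 24_3 h. The 3 groups did not overlap in either cultivar. The return was called in CK (log2 fold change 3.92, SE 0.66, adjusted p = 1.69e-05) and in EWT (log2 fold change 4.66, SE 0.66, adjusted p = 1.8e-06).

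Another NHL1 match, evm_TU_scaffold_8097_39, lay at 0 to 1.897 FPKM at 24 h and 10.7 to 18.6 at 24_3 h in CK (log2 fold change 5.29), and at 0 to 0.814 and 2.48 to 5.29 in EWT (3.32). evm_TU_scaffold_11562_16 and evm_TU_scaffold_7877_13, with no protein match, did the same, with rises of 3.64 and 3.02 in EWT on the log2 scale. evm_TU_scaffold_518_213, matched to NHL6, fell to values of 0 to 0.378 FPKM in CK and to 0 in all 4 EWT libraries at 12 h, from 9.29, 11.7, 12.7 and 16.3 in CK and 11.3, 5.797, 4.67 and 8.700 in EWT at 0 h, at least 39.5-fold lower in EWT. By 24 h, still in the water, it had risen to 1.67 to 4.64 FPKM in EWT and 0.465 to 1.49 in CK, without overlap. The response difference at 24 h passed (2.49, SE 0.61, adjusted p = 0.00455). At 24_3 h its means were 4.80 FPKM in CK and 2.40 in EWT, beside 0.883 and 3.11 at 24 h.

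Some NHL matches were far more abundant. evm_TU_scaffold_6455_43, matched to NHL2, stood at 237, 302, 314 and 322 FPKM in CK and 156, 189, 137 and 180.0 in EWT at 0 h, and at 402, 496, 584 and 439 and 504, 512, 572 and 489 at 12 h. The rise was called in EWT (log2 fold change 1.65, SE 0.17, adjusted p = 1.92e-10), and in CK it was 0.71, below the fold threshold. EWT had started lower and the cultivars overlapped at 12 h. evm_TU_scaffold_6455_53, matched to NHL3, was at 83.8 to 135 FPKM in CK and 197 to 263 in EWT at 3 h, and although neither cultivar's change from 0 h was called, its response difference passed (1.23, adjusted p = 0.000487). evm_TU_scaffold_25_464, matched to NHL13, started at 147 to 228 FPKM in CK and 51.9 to 70.6 in EWT (log2 fold change -1.75, SE 0.17, adjusted p = 1.46e-10) and rose in EWT at 12 h (1.52), a call lost with library sizes from all fragments. Its change in CK at 12 h, 0.65 (adjusted p = 0.00153), was below the fold threshold, and the difference of the responses at 12 h was not called (0.87, adjusted p = 0.0126).

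**Figure D4:**
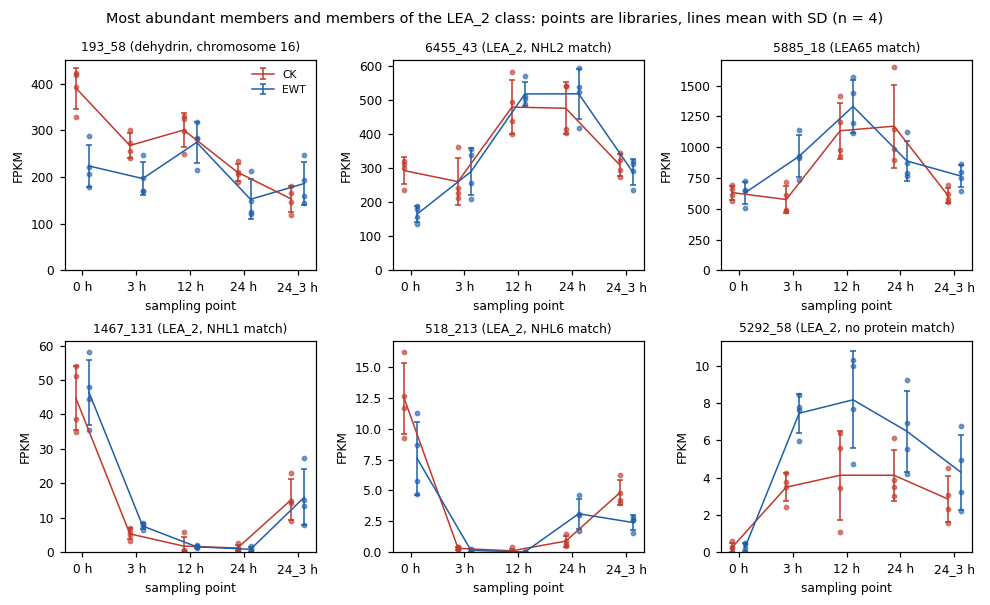
Expression of the most abundant members and of 3 responding LEA_2 genes in FPKM (vertical axes, linear, from 0) at the 5 sampling points (horizontal axes, evenly spaced) in CK (red) and EWT (blue); points are libraries, lines join group means and bars are the SD of 4 libraries. The evm_TU_scaffold_1467_131 libraries lie between 0 and 2.59 FPKM at 24 h and between 7.96 and 27.3 FPKM at 24_3 h.

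Genes matched to LEA14 of cotton, a LEA_2 protein without a membrane anchor, included some at 0 before waterlogging. evm_TU_scaffold_84_19 was at 0 in all 8 libraries at 0 h. It stood at 4.44, 2.26, 1.68 and 0 FPKM in CK and 7.86, 6.07, 2.03 and 12.6 in EWT at 12 h, and at 4.45, 1.39, 0 and 0.489 and 24.97, 15.7, 11.9 and 4.997 at 24 h. All EWT libraries at 24 h lay above all CK libraries at that time. Against the limit of 3 fragments over the 0 h group, it was at least 99.8-fold higher in EWT and at least 7.65-fold higher in CK at 24 h. It fell on reoxygenation in EWT (log2 fold change -3.96, SE 1.02, adjusted p = 0.00322).

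The LEA14 matches evm_TU_scaffold_500_51 and an unnumbered gene (chr12:81015260-81016638, the unnumbered LEA14 match, with no domain listed) reached means of 6.497 and 4.596 FPKM in EWT at 24 h and 0.244 and 0.0977 in CK. Their response differences at 24 h passed (3.87, adjusted p = 0.0377, and 4.52, adjusted p = 0.00055). The LEA_2 gene evm_TU_scaffold_500_52, also on chromosome 11, was higher in CK at 24 h instead, at 9.62, 9.91, 28.2 and 9.44 FPKM in CK and 2.35, 5.18, 3.199 and 4.76 in EWT (log2 fold change -1.75, SE 0.66, adjusted p = 0.0307).

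evm_TU_scaffold_5292_58 and evm_TU_scaffold_710_44, LEA_2 genes with no protein match, were higher than at 0 h at all 4 later points in both cultivars. evm_TU_scaffold_5292_58 stood at 0.242, 0.226, 0 and 0.593 FPKM in CK and 0.225, 0.473, 0.4298 and 0 in EWT at 0 h and at 2.43, 4.23, 3.51 and 3.76 and 5.96, 8.43, 7.63 and 7.81 at 3 h. Both cultivars had left their 0 h range within 3 h (3.57 in CK and 4.57 in EWT), and EWT libraries lay above CK libraries at 3 h. evm_TU_scaffold_710_44 reached 3.32 FPKM in CK and 8.99 in EWT at 12 h from 0.269 and 0.391. evm_TU_scaffold_10341_30, matched to NHL26, had risen in CK to a mean of 2.22 FPKM at 24 h and fell to 0.317 at 24_3 h (-2.97).

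The LEA65 match evm_TU_scaffold_5885_18 stood at 561, 614, 663 and 689.9 FPKM in CK and 722, 657, 508 and 642 in EWT at 0 h, and at 1208, 1418, 981 and 928 and 1194, 1117, 1573 and 1443 at 12 h. It rose in EWT at 12 h (log2 fold change 1.07, SE 0.17, adjusted p = 2.28e-06), a call lost in 4 of 16 alternative settings, including without EWT 0 h replicate 3 and without EWT 12 h replicate 3; in CK its change was 0.83. The other LEA65 match, evm_TU_scaffold_6561_31, was lower in EWT at each of the 5 points, from -1.31 at 12 h to -2.31 at 24 h. The LEA47 match evm_TU_scaffold_493_444, which holds a SEC-C motif, fell at 24 h in CK (-2.41) and in EWT (-3.55).

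At 0 h, before waterlogging, 10 members were higher in EWT than in CK, against 16.4% of all genes, and 24 were lower, against 13.6%. Most of the latter were LEA_2 genes (20 of the 24). The LEA_2 genes with the largest differences were evm_TU_scaffold_1457_385 (26.5, 28.6, 26.9 and 28.6 FPKM in CK and 3.49, 4.24, 4.08 and 2.48 in EWT) and evm_TU_scaffold_8249_11 (39.2, 53.6, 51.2 and 58.5 and 7.93, 7.44, 7.46 and 5.05), with no overlap and log2 differences of -2.95 and -2.85. On the other side evm_TU_scaffold_967_118, a LEA_2 gene on chromosome 2, was at 0 in 19 of 20 CK libraries and at 2.28, 1.12, 1.04 and 2.09 FPKM in EWT at 0 h, at least 18.6-fold higher, and rose in EWT to 7.27, 6.62, 6.87 and 6.09 at 12 h. evm_TU_scaffold_9513_28, matched to NHL10, was at 2.46 to 4.73 FPKM in EWT and 0 to 1.18 in CK, and evm_TU_scaffold_1008_46 at 1.97 to 3.82 and 0.126 to 0.559.

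During waterlogging the balance turned. At 3 h 30 members were higher in EWT (17.2% of all genes) and 11 lower (15.8%), at 12 h 31 (21.6%) and 17 (16.6%), at 24 h 27 (21.5%) and 20 (17.4%), and at 24_3 h 24 (16.9%) and 10 (13.3%). The shares of higher members, 17.6% to 22.8%, were near those of all genes, and read alone they say little about the members.

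The difference of the responses stood further from the background. At 3 h the response of EWT exceeded that of CK in 22 of 136 members (16.2%), against 2.77% of all genes, and fell short in 2 (2.28% of all genes). At 12 h the counts were 16 (5.97%) and 2 (4.83%), at 24 h 15 (6.07%) and 1 (5.91%), and at 24_3 h 13 (1.83%) and 0 (1.11%). At 3 h 18 of the 22 were LEA_2 genes, 10 of them NHL matches, and the median of the 92 LEA_2 genes was 0.98 on the log2 scale beside -0.07 for all genes. Of these 18 genes, 8 were called lower and none higher in CK at 3 h, and 6 were called higher and none lower in EWT. They were picked by the response difference in the same libraries, so these directions follow in part from the choice and are given as a description. For the 13 dehydrins of chromosomes 7, 8 and 9 the median response difference at 3 h was -1.05, with 2 called below 0 and none above. Without CK 3 h replicate 2 or without EWT 0 h replicate 3 the 24 calls at 3 h became 15. The 13 calls at 24_3 h became 6 without CK 24_3 h replicate 1 and 8 without CK 0 h replicate 2, EWT 0 h replicate 1, EWT 0 h replicate 3 or EWT 24_3 h replicate 2.

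Among the LEA_2 genes of the 0 h contrast, evm_TU_scaffold_1457_385 and evm_TU_scaffold_8249_11 fell less in EWT than in CK, from their lower start (response differences of 3.05 at 24 h and 1.81 at 12 h), and evm_TU_scaffold_1008_46, which started higher in EWT, fell further in EWT at 12 h (-2.47, adjusted p = 0.0418). At 12 h the EWT libraries of evm_TU_scaffold_1008_46 stood at 0 to 0.157 FPKM, and its call was lost under 14 of 23 alternatives, with adjusted p from 3.97e-05 to 0.544.

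**Figure D5:**
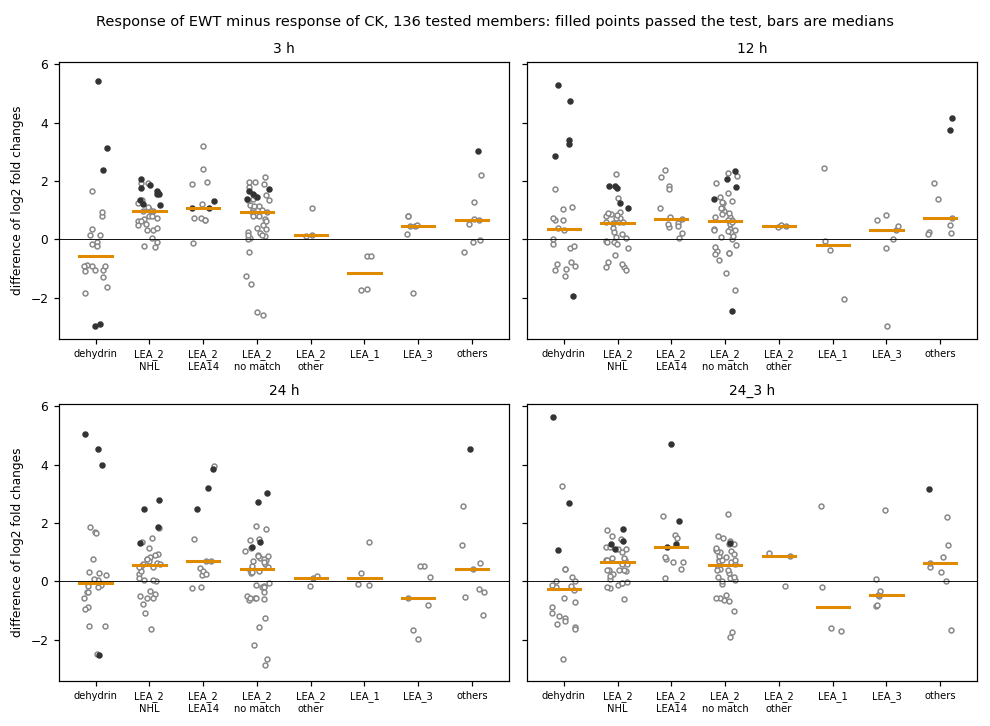
Response of EWT minus response of CK, as a difference of log2 fold changes (vertical axes), for the 136 tested members by class (horizontal axes, as in the plot of responses by class) at the 4 later sampling points against 0 h. Filled points passed the test and bars are class medians; at 3 h the medians of the NHL and LEA14 groups of LEA_2 are 0.98 and 1.09, and that of the dehydrins is -0.56.

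After 3 h of reoxygenation 21 members were higher than at 24 h in CK (14.1% of all genes) and 15 lower (13.3%), and in EWT 32 were higher (13.3%) and 14 lower (11.7%). With library sizes from all fragments, these counts were 36 and 6 in CK and 46 and 11 in EWT. Of all 89517 tested genes, 19380 were then higher and 6902 lower in CK, and 19447 and 6025 in EWT. Over all genes the counts thus also shifted to the higher side. The genes higher at 24_3 h than at 24 h were mostly LEA_2 (20 of 21 in CK and 30 of 32 in EWT), while 9 of the 14 that fell in EWT were dehydrins. Against 0 h, the 24_3 h libraries had 4 members higher (10.2% of all genes) and 57 lower (15.9%) in CK, and 9 higher (9.13%) and 27 lower (12.1%) in EWT. For the LEA_2 genes 36 of 92 were lower than at 0 h in CK and 8 in EWT; for the dehydrins it was 15 of 24 in CK and 15 in EWT.

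Other genes of water deficit and seed programmes were listed beside the members. Of 33 tested BURP domain genes, a family that holds the dehydration-responsive protein RD22, 24 fell and 2 rose in CK at 12 h and 20 fell and 2 rose in EWT, with medians of -2.85 and -1.91 on the log2 scale. Of 35 tested HVA22 genes, named after a barley gene induced by abscisic acid, 13 fell and 9 rose in CK at 12 h and 12 fell and 5 rose in EWT. Among 15 tested bZIP factors of the ABI5 and ABF type, which bind abscisic acid response elements, 3 rose and 2 fell in CK at 12 h and 5 rose and 2 fell in EWT, and of 286 phosphatases of type 2C, a family with negative regulators of abscisic acid signalling, 57 rose and 67 fell in CK and 62 rose and 59 fell in EWT. Over all genes tested at 12 h, 18.4% rose and 27.1% fell in CK and 20.2% rose and 26.5% fell in EWT, and the shares of the phosphatases were near these. Of 7 oleosins, seed oil body proteins, 3 rose in EWT at 12 h and none in CK.

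The genes outside the list whose 10 group means followed evm_TU_scaffold_1614_8 most closely, by Pearson's r of mean log2(FPKM + 0.1), were evm_TU_scaffold_1166_126, matched to a rice MYB2 factor (r = 0.95), evm_TU_scaffold_9462_28, matched to carboxylesterase 6 of Arabidopsis (r = 0.95), evm_TU_scaffold_10665_7, matched to a rubisco small subunit (r = 0.94), evm_TU_scaffold_124_147, matched to the cold-regulated membrane protein COR413-PM1 (r = 0.94), and evm_TU_scaffold_541_104, without annotation (r = 0.94). The last lies on chromosome 25, where the dehydrin evm_TU_scaffold_541_105 bears the next number on the same scaffold. These are descriptions over 10 groups that share the same libraries.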

How the data were processed

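Roots of CK and EWT were sequenced as poly(A)-selected, paired-end libraries, 4 per group, which the study's methods call biological replicates. Per the submitters' processing notes, the authors used fastp, HISAT2 2.0.5 and featureCounts 1.5.0-p3; no source used here names the genome build, the strand setting or the treatment of fragments that map to several places. The deposited table holds FPKM values per gene and library, made by the authors from fragment counts, gene length and library size. The FPKM values were whole fragments after rescaling, within 0.01 fragments, and the rescaled fragments gave the depths.

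Genes with at least 1 FPKM in at least 4 libraries were kept (89517 of 178540), and log2(FPKM + 0.1) was fitted with limma 3.58.1 (R 4.3.3) in 1 model of the 10 groups, so fold changes of low genes are understated. A gene was called at a Benjamini-Hochberg adjusted p of at most 0.05 over all tested genes and a fold change of at least 2. Exact permutation tests were two-sided. A group at 0 was given a limit of 3 fragments over its 4 libraries, for counting error only. Arrays are members of 1 class on 1 chromosome at most 100 kb apart. The members, lists and classes were chosen with earlier results of these data known. Named genes were the gene the study showed, the 3 most abundant members of each class, and, among called members, the 3 largest rises and falls at 12 h and 24 h in each cultivar (groups not overlapping), the 3 largest response differences each way at 12 h and 24 h, the 3 largest cultivar differences each way at 0 h and the 2 largest changes each way on reoxygenation in each cultivar; the remaining dehydrins named (evm_TU_scaffold_541_105, the unnumbered gene on chromosome 27, evm_TU_scaffold_1802_74, evm_TU_scaffold_1199_68, evm_TU_scaffold_3807_6 and evm_TU_scaffold_1113_146) were added after their values were seen. The alternatives tried were the pseudocount (0.01 and 1), the filter on low values, all-fragment library sizes, only the groups compared, a replicate block, voom on recovered fragments, unadjusted p and leaving out each library. The fit was tested on simulated data. Precision is limited by 4 libraries per group and by depth, lowest in CK.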

Additional observations from a re-analysis of the deposited data

Results flagged for a closer look

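For 18 members given library by library, 169 groups of 4 libraries with any spread were examined for a single library far from the rest, by Dixon's criterion on the gap over the range, which chance meets in about 1 of 20 groups. 12 groups met it. evm_TU_scaffold_1614_8 stood at 52.7 FPKM in EWT 0 h replicate 4, with the other 3 at 23.3 to 26.6. In EWT 24 h replicate 1, evm_TU_scaffold_1614_8 stood at 68.9 FPKM, with the other 3 at 19.7 to 27.6. evm_TU_scaffold_1829_107 stood at 50.4 FPKM in EWT 24 h replicate 1, with the other 3 at 21.4 to 25.6. In CK 3 h replicate 3, the unnumbered chromosome 25 dehydrin stood at 0.894 FPKM, with the other 3 at 0.117 to 0.142. The unnumbered chromosome 25 dehydrin stood at 1.96 FPKM in CK 12 h replicate 1, with the other 3 at 0. In EWT 0 h replicate 2, evm_TU_scaffold_924_432 stood at 229 FPKM, with the other 3 at 176 to 184. evm_TU_scaffold_924_426 stood at 0.551 FPKM in CK 24_3 h replicate 1, with the other 3 at 0. In CK 0 h replicate 1, evm_TU_scaffold_1145_30 stood at 2.97 FPKM, with the other 3 at 0.661 to 0.898. evm_TU_scaffold_87_15 stood at 0.683 FPKM in EWT 0 h replicate 2, with the other 3 at 0 to 0.08900. In CK 12 h replicate 4, evm_TU_scaffold_1467_131 stood at 5.74 FPKM, with the other 3 at 0.212 to 0.4800. evm_TU_scaffold_518_213 stood at 0.378 FPKM in CK 12 h replicate 2, with the other 3 at 0. In CK 24 h replicate 1, evm_TU_scaffold_967_118 stood at 0.236 FPKM, with the other 3 at 0.

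The response to waterlogging or reoxygenation differed between the cultivars, by the interaction in the limma fit, in 29 comparisons of 18 members among the 49 named, 45 of which were tested. Values are the response of EWT minus that of CK on the log2 scale, with the sampling point in parentheses. For evm_TU_scaffold_6455_53 the difference was 1.23 (3 h). It was 1.67 (3 h) and 1.10 (24_3 h) for evm_TU_scaffold_25_464. evm_TU_scaffold_87_15 had 4.16 (12 h). For evm_TU_scaffold_419_310 the difference was 3.03 (3 h). It was 1.09 (24_3 h) for evm_TU_scaffold_193_58. evm_TU_scaffold_518_213 had 2.49 (24 h). For evm_TU_scaffold_1829_107 the difference was 2.36 (3 h), 3.40 (12 h), 3.98 (24 h) and 2.68 (24_3 h). It was 3.74 (12 h), 4.52 (24 h) and 3.18 (24_3 h) for the unnumbered LEA14 match. evm_TU_scaffold_500_51 had 3.87 (24 h). For evm_TU_scaffold_924_433 the difference was -2.89 (3 h). It was 3.14 (3 h), 5.28 (12 h) and 4.56 (24 h) for the unnumbered chromosome 25 dehydrin. evm_TU_scaffold_1145_30 had 5.43 (3 h), 4.73 (12 h), 5.04 (24 h) and 5.65 (24_3 h). For evm_TU_scaffold_1008_46 the difference was -2.47 (12 h). It was -1.94 (12 h) for evm_TU_scaffold_6429_32. evm_TU_scaffold_423_158 had -2.52 (24 h). For evm_TU_scaffold_967_118 the difference was 2.05 (12 h). It was 3.05 (24 h) for evm_TU_scaffold_1457_385. evm_TU_scaffold_8249_11 had 1.81 (12 h). For evm_TU_scaffold_967_118 the CK libraries were at 0 at both 0 h and 12 h, so its response in CK was not measured.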

How the results depend on the processing

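Members called were counted again under each alternative. Counting only the 17 members with the word in the protein name gave 2, 5, 5 and 3 calls in CK at 3, 12, 24 and 24_3 h against 0 h, 1, 9, 7 and 4 in EWT, 2 and 3 for reoxygenation in CK and EWT, 1, 1, 3, 6 and 4 for EWT against CK at 0, 3, 12, 24 and 24_3 h, and 0, 1, 2 and 1 for the response differences at 3, 12, 24 and 24_3 h, a shorter list by construction. Leaving out the LEA_2 class gave 17, 23, 19 and 21 calls in CK at 3, 12, 24 and 24_3 h against 0 h, 19, 31, 27 and 22 in EWT, 8 and 14 for reoxygenation in CK and EWT, 9, 14, 20, 19 and 13 for EWT against CK at 0, 3, 12, 24 and 24_3 h, and 6, 8, 5 and 4 for the response differences at 3, 12, 24 and 24_3 h, a shorter list by construction. In CK from 24 h to 24_3 h the 36 calls became 18 in a fit of the compared groups alone and 22 with a pseudocount of 1, and the 16 response differences at 24 h became 25 with a pseudocount of 1. At an unadjusted p of at most 0.05 with the same fold, the response differences numbered 46, 31, 28 and 27 at 3, 12, 24 and 24_3 h, in place of 24, 18, 16 and 13. Leaving out 1 library at a time gave 15 to 25 response differences at 3 h and 6 to 13 at 24_3 h, and the counts of the other comparisons stayed within 1.5 times. The cause of these shifts was not tested. Of 907 member calls, none changed sign with either other pseudocount, with library sizes from all fragments or with voom. The filters, the replicate block and the fit of the compared groups alone leave fold changes as they are, so no sign could change there. Over the settings, 739 (pseudocount 1) to 895 (replicate block) were called again, or 682 of 682 with a mean of at least 1 FPKM required.

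Groups share replicate numbers 1 to 4, and nothing in the labels says that a number marks a shared tray or day. Deviations from the group mean correlated between same-numbered libraries with r of -0.082 to 0.127 (180 pairs, median 0.001), against -0.097 to 0.098 for different numbers, and 11 of 40 libraries were most like their own number, so the libraries were treated as sharing only a number. The fit with the replicate block called 91 members in EWT at 12 h (90 without it), 60 in CK at 3 h (62) and 23 response differences at 3 h (24). Members at low levels are limited by depth: a group at 0 in 4 libraries is not shown to lack the transcript.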
